A study of Homo sapiens with 4 samples.

Results

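Collagen chains were followed by the transcripts of 10 genes, COL4A1, COL4A2, COL4A5, COL4A6, COL7A1, COL8A1, COL12A1, COL17A1, COL5A2 and COL18A1, chosen by name among 19568 genes and 35 collagen genes. The cells came from patches of MCF10A_H2B_GFP, a line of untransformed human mammary epithelial cells that carries a green nuclear marker. For each patch, 10000 cells were seeded on fibronectin (0.1 mg/ml) and grown for 6 days in medium with insulin (10 µg/ml), hydrocortisone (500 ng/ml), EGF (20 ng/ml), cholera toxin (100 ng/ml), 5% serum and 1% of a mix of penicillin and streptomycin. All patches shared this line and this medium. Regions of living patches were tagged by light with the dyes JF646 and JF549, in bands of 1000 to 1500 µm (low resolution) or of 250 µm (high resolution), and cells were sorted into plates of 384 wells. There were 2 plates for each resolution, and the plate was the replicate. The region that each well came from was not analysed here, so every value is for a whole plate, and outer and inner cells were not compared.

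Collagens are secreted or membrane-bound proteins whose chains wind into trimers, and each type serves another structure of the extracellular matrix. Type IV collagen forms the network of the basement membrane on which epithelial cells rest: COL4A1 and COL4A2 encode the chains found in nearly all basement membranes, while COL4A5 and COL4A6 encode chains of the network of some epithelia. COL7A1 encodes the collagen of anchoring fibrils below the basement membrane, and COL17A1 a transmembrane collagen of the hemidesmosome, the junction that fastens a basal epithelial cell to that membrane. COL8A1 encodes a short-chain, network-forming collagen, COL12A1 a collagen that associates with fibrils, COL5A2 a fibrillar chain of type V, and COL18A1 a basement membrane collagen. In an epithelial-to-mesenchymal transition (EMT), epithelial cells lose cell-to-cell junctions and take on a migratory, mesenchymal state, and the matrix they make is known to change with it.

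Both type IV pairs lie head to head in the genome, and the chains of a pair are transcribed in opposite directions. By GENCODE 29 (GRCh38), COL4A1 lies at chr13:110148963-110307233 on the minus strand and COL4A2 at chr13:110305812-110513209 on the plus strand, so that the annotated genes overlap by 1422 bases at their 5′ ends, while the assay counts molecules from their 3′ ends. COL4A6 lies at chrX:108155607-108439497 on the minus strand and COL4A5 at chrX:108439844-108697545 on the plus strand. The others are at chr3:48564073-48595267 (COL7A1), chr3:99638475-99799226 (COL8A1), chr6:75084326-75206051 (COL12A1), chr10:104031286-104085957 (COL17A1), chr2:189031896-189225312 (COL5A2) and chr21:45405137-45513720 (COL18A1). In the RefSeq promoter table (GRCh38.p14), 8 of the 10 genes had an entry, with 10 windows of 250 bases before a transcript start, and COL8A1 and COL5A2 had none. The starts of COL4A1 and COL4A2 were separated by 126 bases and those of COL4A5 and the nearer COL4A6 transcript by 379 bases.

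The sequences of these shared stretches are shown because the pairs are the chains whose co-expression is described further on, with that of COL17A1 because it is the chain that moved against the others along the EMT score. Capitals mark GGGCGG (a GC box), CCAAT and TATAAA, read on either strand. The first runs from start to start at chr13:110307158-110307283 (plus strand), the others are the 250 bases before the start at chrX:108439588-108439837 (plus strand), chrX:108439459-108439708 (minus strand) and chr10:104085881-104086130 (minus strand).
COL4A1-COL4A2: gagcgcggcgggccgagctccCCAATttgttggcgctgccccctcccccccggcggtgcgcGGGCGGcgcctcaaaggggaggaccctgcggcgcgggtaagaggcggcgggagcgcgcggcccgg
COL4A5: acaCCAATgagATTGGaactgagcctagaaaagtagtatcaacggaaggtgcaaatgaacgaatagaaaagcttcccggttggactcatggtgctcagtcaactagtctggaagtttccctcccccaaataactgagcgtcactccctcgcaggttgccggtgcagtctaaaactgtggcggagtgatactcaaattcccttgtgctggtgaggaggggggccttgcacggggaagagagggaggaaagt
COL4A6: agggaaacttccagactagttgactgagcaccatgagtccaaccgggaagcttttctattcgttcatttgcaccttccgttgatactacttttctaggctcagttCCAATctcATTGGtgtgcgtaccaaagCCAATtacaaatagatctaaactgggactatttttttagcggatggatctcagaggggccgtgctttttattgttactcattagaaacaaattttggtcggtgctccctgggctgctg
COL17A1: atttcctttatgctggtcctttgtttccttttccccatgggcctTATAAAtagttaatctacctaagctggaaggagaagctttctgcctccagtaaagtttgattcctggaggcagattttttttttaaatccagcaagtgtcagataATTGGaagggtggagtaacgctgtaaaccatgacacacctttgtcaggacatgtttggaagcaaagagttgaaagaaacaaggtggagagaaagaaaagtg

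The stretch between COL4A1 and COL4A2 was 80.2% G and C and held 1 GC box and 1 CCAAT. The windows of COL4A5 (51.2% G and C) and COL4A6 (44.0%) overlapped by 121 bases, held no GC box, and held CCAAT at 2 and 3 places. Both places of COL4A5 lay in the overlap and are the same bases as 2 of those of COL4A6. The COL17A1 window had 40.4% G and C, against a median of 58% over the 35116 windows of the table, and held 1 TATAAA and 1 CCAAT. Over all windows, 42.6% held GGGCGG, 32.0% CCAAT and 10.7% TATAAA. In none of the 10 windows were the letters CAGGTG (an E-box, in 17.5% of all windows) or TGANTCA (an AP-1 site, in 6.57%) found on either strand. These are matches of letters within the windows and nothing more.

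The 4 plates held between 1.17e+07 and 1.5e+07 transcripts, and 1146 of 1536 wells passed the study's limits on detected features and mitochondrial counts (271 to 293 per plate, median depth 30111 to 40890 transcripts per cell). Low-resolution replicate 1 was read on another flow cell than the other 3 plates, by the names of the files. No well was identical between plates. The cells carried the markers of their line: all 10 epithelial markers were found on every plate, with a summed level of 31.6 and 31.9 per 10000 transcripts at low and 36.9 and 37.8 at high resolution. The 7 fibroblast markers found in the files summed to 0.0925 and 0.0729 at low and 0.102 and 0.148 at high resolution, mostly COL1A1, and their median marker was seen in 0.341% to 0.687% of cells. The 4 leukocyte markers summed to 0.461 and 0.545 at low and 0.284 and 0.262 at high resolution, which was nearly all CD14, while CD3E was at 0 on 3 of 4 plates. The 4 endothelial markers summed to 0.186 and 0.206 at low and 0.233 and 0.255 at high resolution through PECAM1 and KDR, while CDH5 was at 0 on 2 plates and reached at most 0.683% of cells. Their part in the results below was not tested.

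Of the 10 chains, 8 were seen in 19.2% to 75.8% of the cells of a plate, while fibroblast and leukocyte markers other than COL1A1 and CD14 reached at most 1.71%. The highest marker of each background list lay in or near the range of the chains. It was seen in 17.3% to 27.6% (fibroblast), 36.9% to 59.8% (leukocyte) and 28.5% to 47.1% (endothelial) of cells. A level is the mean over cells of the UMIs (unique molecular identifiers, 1 per captured molecule) per 10000 of the cell, and since each molecule is counted once at its 3′ end, levels of different genes need no scaling by length. The share of cells with a UMI depends on depth, so it is given as computed exactly for a draw of 10000 UMIs from each cell, with the share at full depth beside it. Together the 10 chains came to 3.01 and 2.41 UMIs per 10000 at low and 3.16 and 3.09 at high resolution.

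COL8A1 had the highest mean level, at 0.626 and 0.414 on the low-resolution plates and 0.881 and 0.76 on the high-resolution plates. It was followed by COL4A5 (0.594 and 0.455 at low, 0.465 and 0.491 at high resolution) and COL12A1 (0.675 and 0.459, then 0.431 and 0.408). The ranges of these 3 over plates overlapped, with means ± SD (n = 4) of 0.67 ± 0.2, 0.501 ± 0.0637 and 0.493 ± 0.123. COL4A2, at 0.254 on each low-resolution plate and 0.607 and 0.525 at high resolution, and COL4A6, at 0.315, 0.308, 0.303 and 0.368, came next. COL4A6 was the steadiest chain, with 0.324 ± 0.03.

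COL17A1 stood at 0.279 and 0.31 at low and 0.181 and 0.221 at high resolution, COL4A1 at 0.104 and 0.0755, then 0.17 and 0.163, and COL7A1 at 0.125 and 0.0894, then 0.0935 and 0.128. At 10000 UMIs per cell, COL4A5 would be seen in 34.4% to 41.0% of cells (64.9% to 70.8% at full depth), COL8A1 in 27.2% to 47.8% (49.1% to 75.8%) and COL7A1 in 8.49% to 11.7% (23.6% to 33.4%). The plot of levels by plate shows this order.

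COL5A2 and COL18A1 were at the low end. COL5A2 was seen in 9.22% to 11.4% of cells at full depth and 2.67% to 4.17% at 10000 UMIs, with 33 to 35 UMIs per plate and at most 3 in 1 cell. This is above the fibroblast and leukocyte markers other than COL1A1 and CD14, but below those 2. It is also below the highest endothelial marker, seen in 28.5% to 47.1% of cells, so COL5A2 does not exceed every marker that this line should lack. COL18A1 had 1 and 4 UMIs on the low- and 2 and 1 on the high-resolution plates, in 0.341% to 1.48% of cells, which is no more than the markers of cell types that this line should lack. Expression of COL18A1 was therefore not detectable at this depth. It is left out of the comparisons between cells, apart from the median rho with the score in the closing section.

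**Figure D1:**
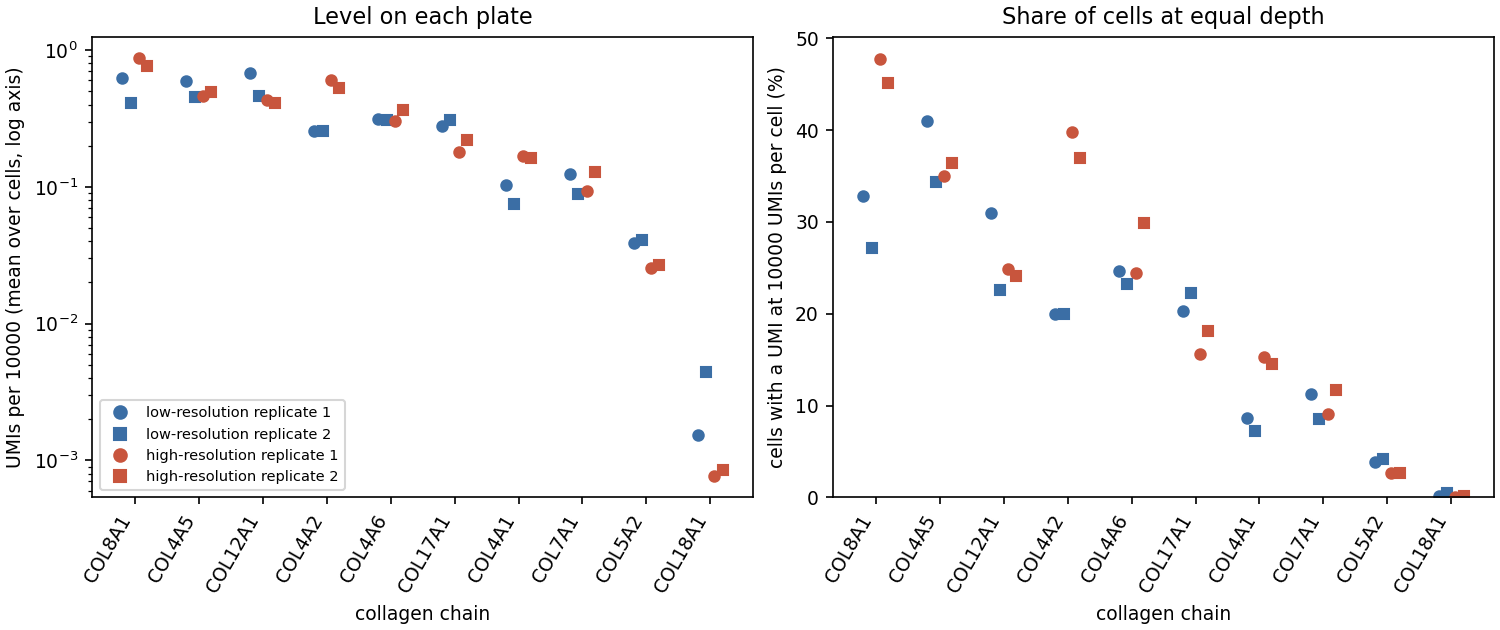
Level of the 10 collagen chains in UMIs per 10000, averaged over the cells of a plate (left, log axis), and share of cells with a UMI for a draw of 10000 UMIs per cell (right). Each point is 1 of 4 plates, with low resolution in blue and high resolution in red: COL4A2, COL4A1 and COL8A1 sit higher on both high-resolution plates, COL17A1 sits lower, and COL18A1 lies near 0.

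The chains also differed in how evenly cells expressed them. The 10% of cells with the most COL4A5 held 32.8% to 36.2% of its UMIs, whereas the same share of cells held 50% to 64.4% of those of COL12A1 and 57.2% to 60.9% of those of COL7A1. Single cells reached 21 to 34 UMIs of COL12A1 on the 4 plates, although 44.3% to 52.6% of cells had any. For COL4A1 the top cells held 71.4% and 70.0% at low but 48.6% and 48.2% at high resolution, where more cells expressed it. A low level alone concentrates counts in few cells, so these shares compare best between chains of like level, such as COL4A5 and COL12A1.

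Among the 25 other collagen genes, 3 reached more than 6.19% of the cells of any plate: COL6A1 (29.2% to 38.9%), COL1A1 (17.3% to 27.6%) and COL6A3 (8.25% to 28.3%), chains of the beaded filaments of type VI and of type I fibrils. COL1A2 and COL3A1, partners of fibril-forming collagen in fibroblasts, had at most 0.738% and 0.687%. The mean level of COL6A1 was 0.158 and that of COL1A1 0.079 per 10000, on either side of those of COL4A1 and COL7A1.

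The high-resolution plates carried more of the basement membrane chains COL4A1 and COL4A2 and more COL8A1 than the low-resolution plates, and less COL17A1. COL4A2 was 2.05-fold higher, COL4A1 1.84-fold and COL8A1 1.68-fold, while COL17A1 was at 0.717 of its level. Of the 9 chains that passed the filter on low counts, these 4 passed the test (3 higher, 1 lower), beside 12.4% of all 12429 genes tested (6.25% higher, 6.19% lower). The counts of all kept cells of 1 plate were added up and tested with edgeR's quasi-likelihood test with Benjamini-Hochberg adjustment, which gave log2 fold changes of 1.04 ± 0.13 (SE, adjusted p = 0.000633) for COL4A2, 0.88 ± 0.19 (adjusted p = 0.0133) for COL4A1, 0.75 ± 0.16 (adjusted p = 0.0109) for COL8A1 and -0.48 ± 0.15 (adjusted p = 0.0494) for COL17A1. For each of these 4 chains, the levels of the 2 high- and the 2 low-resolution plates did not overlap. Neither did those of COL12A1 and COL5A2, which did not pass, or of COL18A1, which was not detectable. How many of all genes separate in this way was not counted, so nothing is read from the separation.

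Over all cells of a plate, the other type IV pair did not follow. COL4A5 had a log2 fold change of -0.10 ± 0.13 and COL4A6 of 0.20 ± 0.14, and their plates overlapped. COL7A1 (0.10 ± 0.20), COL5A2 (-0.32 ± 0.30) and COL12A1 (-0.42 ± 0.15, adjusted p = 0.0948) did not pass either. The median over the 9 chains was 0.10, beside -0.02 over all genes tested. Markers differed between the resolutions too: VIM (0.94 ± 0.13), FN1 (0.77 ± 0.11) and PECAM1 (0.55 ± 0.16) were higher and CDH1 (-0.68 ± 0.12), CD14 (-0.96 ± 0.19) and KDR (-1.02 ± 0.30) lower at high resolution, each with an adjusted p under 0.05, while EPCAM (-0.11 ± 0.11) did not pass. Their part in the differences of the chains was not tested beyond the values within parts of the score given further on.

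COL4A2, COL8A1 and COL4A1 kept their direction with every plate left out. Without low-resolution replicate 1, which leaves plates of 1 flow cell, their log2 fold changes were 1.11, 1.04 and 1.11. Without low-resolution replicate 2 that of COL4A1 was 0.68 (adjusted p = 0.0503). The difference in COL17A1 missed the threshold with DESeq2 (adjusted p = 0.156), with RLE normalization (adjusted p = 0.0504) and without any 1 of the 4 plates (adjusted p = 0.0652 to 0.244). COL12A1, which was highest on low-resolution replicate 1, differed by -0.61 (adjusted p = 0.0158) without low-resolution replicate 2 and by -0.17 (adjusted p = 0.521) without low-resolution replicate 1.

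**Figure D2:**
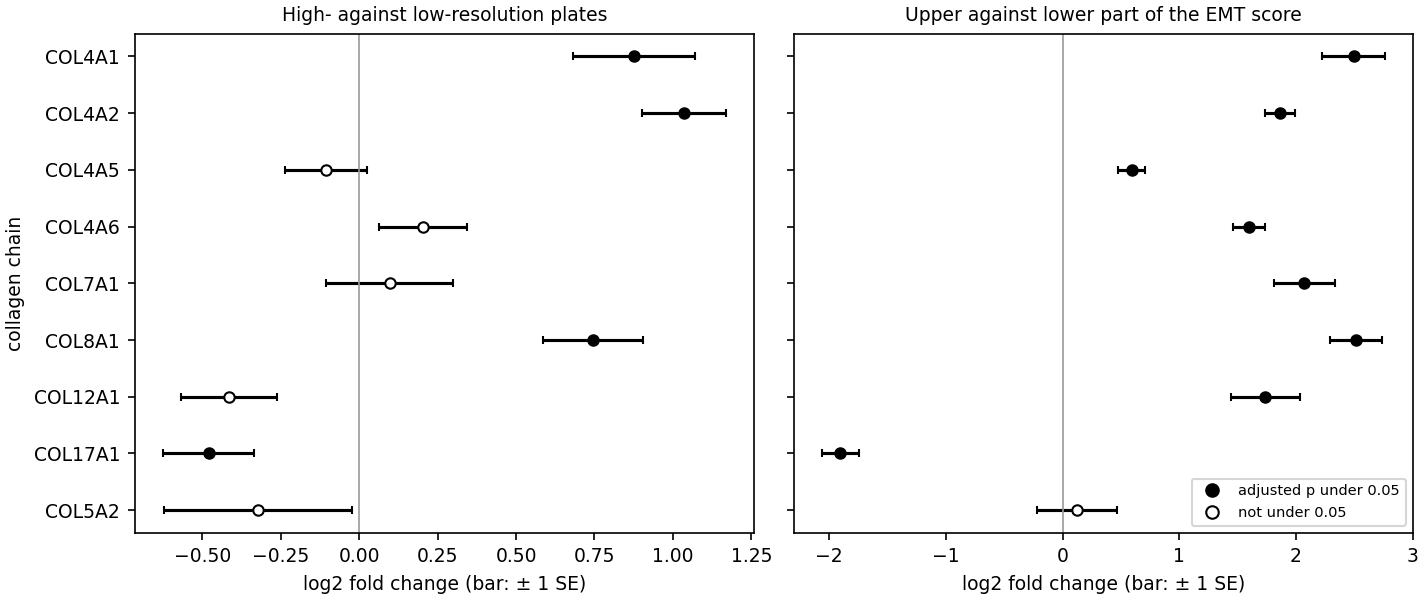
Log2 fold changes of 9 collagen chains between high- and low-resolution plates (left) and between the upper and the lower part of the EMT score (right), with bars of 1 SE from edgeR's quasi-likelihood test. Filled points have an adjusted p under 0.05: 4 chains at left, with COL4A2 highest at 1.04, and 8 at right, where COL17A1 alone is negative.

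Cells were then ordered by an EMT score. It is the difference of a mesenchymal and an epithelial gene set score per cell, here computed without any collagen gene, so that no chain enters its own ordering. The cells of each plate were cut into 3 equal parts by this score, of 90 to 98 cells each. Genes of the score lists moved by construction: CDH1, the junction protein E-cadherin, had 0.0417 ± 0.0188 (SD, n = 4 plates) of the level of the lower part in the upper part, and VIM, the filament protein vimentin, 44.9 ± 14.8 times the level.

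From the lower to the upper part of the score, 7 collagen chains rose and COL17A1 fell. At full depth the rises were largest for COL8A1, COL4A1 and COL7A1, and smallest for COL4A5, whereas in cells thinned to 10000 UMIs that of COL12A1 was the largest. Of 9 chains tested, 8 passed (7 higher, 1 lower), but so did 41.2% of all 11227 genes (21.0% higher, 20.2% lower), since the score separates cells in a large part of their transcriptome. The fit was edgeR's quasi-likelihood test on counts summed per part, with the plate as a block and Benjamini-Hochberg adjustment. The median log2 fold change was 1.74 over the 9 chains and 0.01 over all genes, with a median size of 0.34 over all genes.

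The level of COL8A1 went from 0.0943 in the lower to 1.4 in the upper part on low-resolution replicate 1 and from 0.118 to 0.853 on replicate 2. On the high-resolution plates it went from 0.269 to 1.17 and from 0.232 to 1.14. It rose on every plate, by a log2 fold change of 2.52 ± 0.22 (SE, edgeR, adjusted p = 2.8e-06), or 5.72-fold. At 10000 UMIs, 8.3% to 20.5% of cells of the lower part and 49.2% to 65.5% of the upper part had a UMI.

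COL4A1 and COL4A2 rose by 2.49 ± 0.27 (adjusted p = 1.53e-05) and 1.86 ± 0.13 (adjusted p = 4.23e-07) on the log2 scale. COL4A2 went from 0.14 to 0.442 and from 0.117 to 0.462 at low, and from 0.211 to 1.02 and from 0.195 to 0.779 at high resolution. COL4A1 went from 0.026 to 0.224 and from 0.00427 to 0.154 at low, and from 0.057 to 0.273 and from 0.0608 to 0.271 at high resolution. The lower part of low-resolution replicate 2 held 2 UMIs of COL4A1 against 53 in the upper part. Scaled to the total of each part, the ratio of pooled UMIs was 28.5, with an exact 95% interval of 7.5 to 241 from counting alone. The ratio of the mean levels on that plate was 36.1. On the other plates the pooled ratio was 9.39, 5.18 and 3.66.

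COL4A6 rose by 1.60 ± 0.14 (adjusted p = 2.73e-06) and COL4A5 by 0.59 ± 0.12 (adjusted p = 0.00148) on the log2 scale. COL4A6 was 3.71 ± 1.02 times (SD, n = 4) as high in the upper as in the lower part, COL4A5 1.7 ± 0.391 times, and each was higher on all 4 plates. On the high-resolution plates COL4A5 was highest in the middle part, at 0.659 and 0.592, with 0.398 and 0.548 in the upper part.

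COL7A1 rose by 2.07 ± 0.26 (adjusted p = 5.96e-05), from 0.075 to 0.216 and from 0.0683 to 0.152 at low, and from 0.0327 to 0.164 and from 0.0344 to 0.245 at high resolution. COL12A1 rose by 1.74 ± 0.30 (adjusted p = 0.000586), from 0.143 to 1.36 and from 0.139 to 1.02 at low, but only from 0.193 to 0.404 and from 0.173 to 0.457 at high resolution. In thinned cells, which were scored and cut into parts anew, its log2 fold change was 2.63 ± 0.25, or 6.2-fold in place of 3.33-fold. The cause was not tested. COL17A1 fell by 1.90 on the log2 scale (SE 0.16, adjusted p = 1.97e-06), from 0.455 to 0.0989 and from 0.521 to 0.0653 at low, and from 0.279 to 0.0754 and from 0.353 to 0.0986 at high resolution, and the middle part lay between on every plate. COL5A2, with a log2 fold change of 0.13 ± 0.34 (adjusted p = 0.793), was higher in the upper part on 2 plates and lower on 2. This chain is in the mesenchymal list of the study and was left out of the score here.

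**Figure D3:**
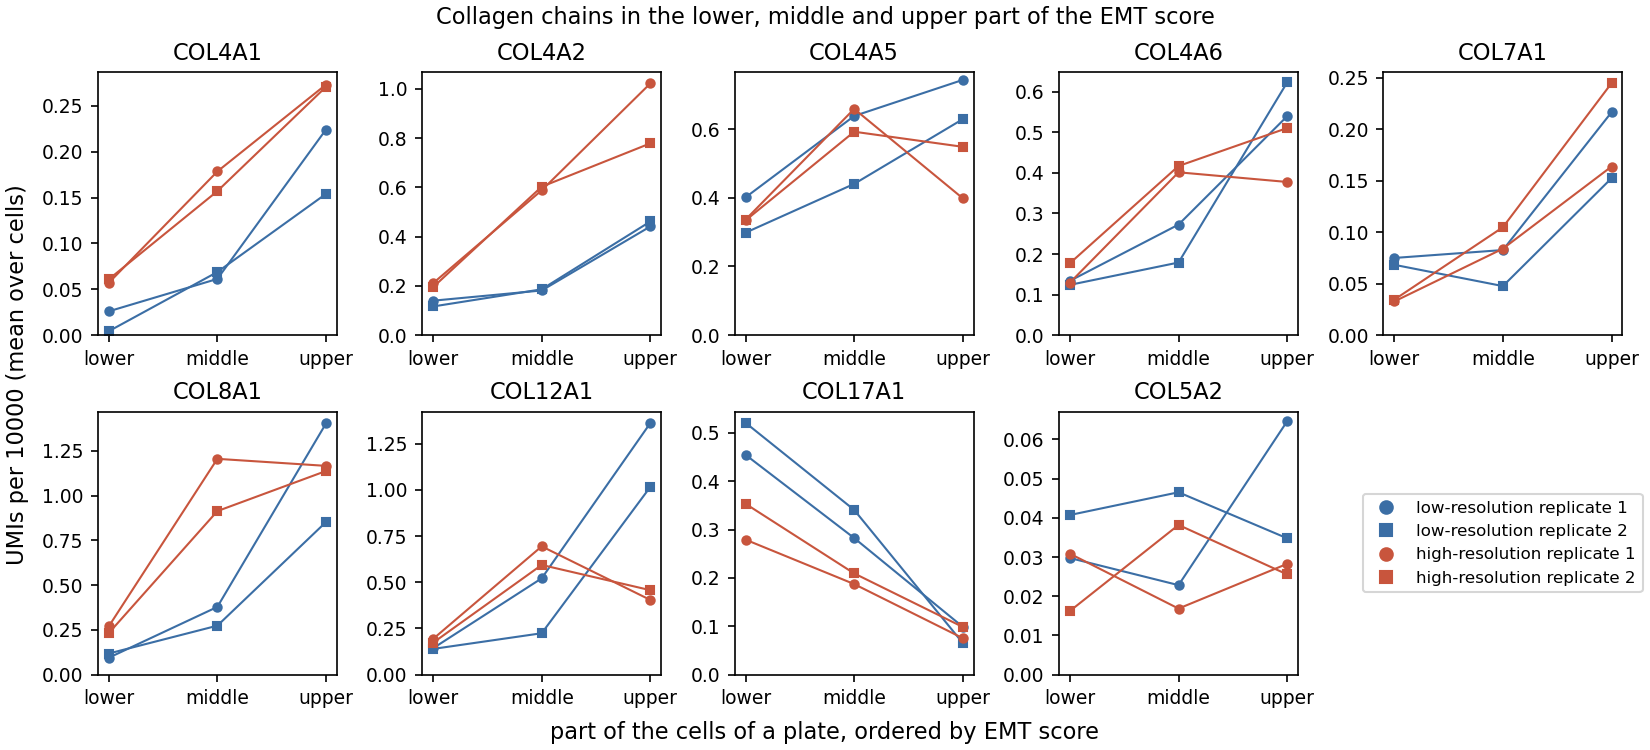
Levels of 9 collagen chains (UMIs per 10000, mean over cells) in the lower, middle and upper part of the cells of each plate, ordered by EMT score, with 1 line per plate and an axis per chain that starts at 0. COL17A1 falls on all 4 plates, COL8A1 rises from lower to upper on all 4, and COL12A1 peaks in the upper part on the low-resolution plates and in the middle part on the high-resolution plates.

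The upper part also differed in measures of the library. Its median share of mitochondrial counts was 26.1% to 29.5%, against 32.1% to 34.1% in the lower part, and on the 4 plates the rho between that share and the score lay between -0.489 and -0.325. Of 9 epithelial markers tested, 7 fell and none rose, 2 of them in the score lists. CD14, nearly the whole leukocyte level, fell by 1.27 (SE 0.17) and KDR by 2.59 (SE 0.37) on the log2 scale, while PECAM1 (0.11 ± 0.19) and COL1A1 (-0.11 ± 0.22) did not pass. Median depth went either way, with 29035 and 30266 transcripts in the upper part at low and 39117 and 41596 at high resolution, against 32315, 33890, 35907 and 37647 in the lower part. With cells thinned to 10000 UMIs, and without the mitochondrial limit, the same number of 8 chains passed. The part of the mitochondrial share and of these markers in the differences was not tested beyond that.

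The rise of COL12A1 along the score was smaller on the high- than on the low-resolution plates, and so was that of COL8A1. COL12A1 was 6.55-fold higher in the upper than in the lower part at low and 1.77-fold at high resolution, COL8A1 9.89-fold and 4.02-fold. A term for this difference gave log2 values of -1.89 ± 0.23 (adjusted p = 9.73e-05) for COL12A1 and -1.30 ± 0.24 (adjusted p = 0.0045) for COL8A1 in edgeR's quasi-likelihood test. These 2 of 9 chains passed, beside 4.52% of all 11227 genes. COL7A1 had the opposite sign, with 2.7-fold at low and 7.16-fold at high resolution, and a difference of 1.41 ± 0.40 (adjusted p = 0.051), and COL4A1 had -1.52 ± 0.49 (adjusted p = 0.0853). The score was fitted separately for each resolution, and the middle part had a median score of -0.0666 and -0.258 at low and 0.297 and 0.124 at high resolution, so that parts of the same name do not hold the same range of scores.

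Read within the parts, the difference between resolutions moved from chain to chain. COL8A1 was higher at high resolution in the lower part (log2 fold change 1.45 ± 0.23, adjusted p = 0.00294, edgeR) and the middle part (1.78 ± 0.18, adjusted p = 3.42e-05), but not in the upper part (0.08 ± 0.19, adjusted p = 0.849). COL4A2 was higher in the middle part by 1.69 ± 0.18 (adjusted p = 5.3e-05) and in the upper part by 0.76 ± 0.17 (adjusted p = 0.0225). COL4A1 was higher in the lower part (2.00 ± 0.52, adjusted p = 0.0266) and the middle part (1.37 ± 0.28, adjusted p = 0.00597), but not in the upper part (0.43 ± 0.22, adjusted p = 0.279). Its lower part held 9 and 2 UMIs on the low-resolution plates. COL17A1 was lower at high resolution in the lower part alone, by -0.66 ± 0.17 (adjusted p = 0.0249). COL4A6 was higher in the middle part alone, by 0.77 ± 0.20 (adjusted p = 0.0276). COL12A1 was lower at high resolution in the upper part, by -1.38 ± 0.17 (adjusted p = 0.000321). COL7A1 was lower in the lower part by -1.23 ± 0.37 (adjusted p = 0.0473), where it had 12 UMIs on each high- and 23 on each low-resolution plate. In number, 4 of 9 chains passed in the lower part, beside 13.4% of all genes tested there, 4 in the middle part, beside 10.2%, and 2 in the upper part, beside 5.02%.

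Without cutting the score into parts, COL8A1 had the highest and COL4A5 the lowest correlation with it among the 7 chains that rose, and the order of the others was not that of the fold changes. The mean Spearman rho with the EMT score over 4 plates (± SD) was 0.575 ± 0.0675 for COL8A1, 0.413 ± 0.0931 for COL4A2, 0.386 ± 0.0397 for COL4A6, 0.365 ± 0.0348 for COL4A1, 0.283 ± 0.0864 for COL7A1, 0.267 ± 0.15 for COL12A1 and 0.178 ± 0.0599 for COL4A5. COL17A1 had -0.338 ± 0.0743, and COL5A2 0.0225 ± 0.093 with 2 plates of either sign. For COL12A1 the values were 0.461 and 0.311 at low and 0.163 and 0.135 at high resolution. Over 7954 genes outside the score lists that had a UMI in 20% of the cells or more on each of the 4 plates, the median size of rho was 0.0829, and 59.7% had the same sign on all plates. These correlations describe cells of the same plates, which share depth and cell size, and carry no test. In thinned cells those of most chains were smaller, with 0.382 for COL8A1, 0.257 for COL4A2 and -0.185 for COL17A1. That of COL12A1 was nearly unchanged, at 0.263, with 0.469 and 0.348 on the low-resolution plates.

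COL4A1 and COL4A2, whose starts share the first stretch printed above, went together across cells. Their rho was 0.383 and 0.297 at low and 0.447 and 0.332 at high resolution, or 0.365 ± 0.0652, the highest of the 28 pairs among the 8 expressed chains at full depth. Both chains were seen in 15.1% and 13.3% of cells at low and 35.7% and 34.5% at high resolution, where the product of their separate shares was 8.64%, 8.28%, 27.9% and 28.0%. COL4A1 was seen in 37.3% and 30.8% of cells with COL4A2 at low and 52.0% and 50% at high resolution, against 10.4%, 10.4%, 15.4% and 19.8% of cells without it. These shares depend on depth. In thinned cells both chains were seen in 3.14% and 1.49% of cells at low and 6.69% and 8.59% at high resolution. The products there were 1.45%, 1.48%, 5.52% and 5.61%, nearly the same as the observed share on low-resolution replicate 2. There were 3.36 ± 0.333 UMIs of COL4A2 for each of COL4A1, and the ratio stayed within 2.87 to 3.59 although both chains differed between resolutions.

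COL4A2 also had the highest rho with depth of the chains, 0.295 ± 0.0524, and COL4A1 had 0.205 ± 0.0516. With ranks of the score and the depth regressed out, the rho of the pair was 0.235, 0.114, 0.263 and 0.169. In thinned cells it was 0.177 and 0.00967 at low and 0.102 and 0.158 at high resolution, near 0 on low-resolution replicate 2. Its mean of 0.112 was then no longer the highest, since COL8A1 had 0.158 with COL12A1 and 0.125 with COL4A6. At that depth COL4A1 is seen in 7.23% to 15.3% of cells.

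COL4A5 and COL4A6 had a rho of 0.243, 0.288, 0.141 and 0.262 on the 4 plates (0.233 ± 0.0646), 0.18 ± 0.0504 with score and depth regressed out and 0.0984 in thinned cells. COL4A5 had little correlation with the other pair, at 0.0212 with COL4A1 and -0.0404 with COL4A2, while COL4A6 had 0.186 and 0.188 with these and its highest rho with COL8A1, at 0.28. There were 1.5 ± 0.239 UMIs of COL4A5 for each of COL4A6. In the map of correlations, COL4A5 stands with COL4A6, COL12A1 (0.207) and COL8A1 (0.176), and the pair COL4A1 and COL4A2 stands with COL8A1 (0.269 and 0.264) and COL7A1 (0.2 and 0.205).

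Of the 28 pairs, 16 had a positive rho on all 4 plates and 3 a negative one. The lowest was COL8A1 with COL17A1, at -0.228 and -0.299 at low and -0.0896 and -0.235 at high resolution, and COL17A1 was negative with COL12A1 (-0.156) and COL4A6 (-0.134) too. In thinned cells COL12A1 with COL17A1 was the lowest, at -0.115, and COL8A1 with COL17A1 had -0.0615. COL8A1 and COL12A1 had 0.269 ± 0.108, which was 0.141 ± 0.0664 with score and depth regressed out and 0.158 in thinned cells. For COL8A1 and COL4A2, by contrast, 0.264 went to -0.0013 with score and depth regressed out.

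**Figure D4:**
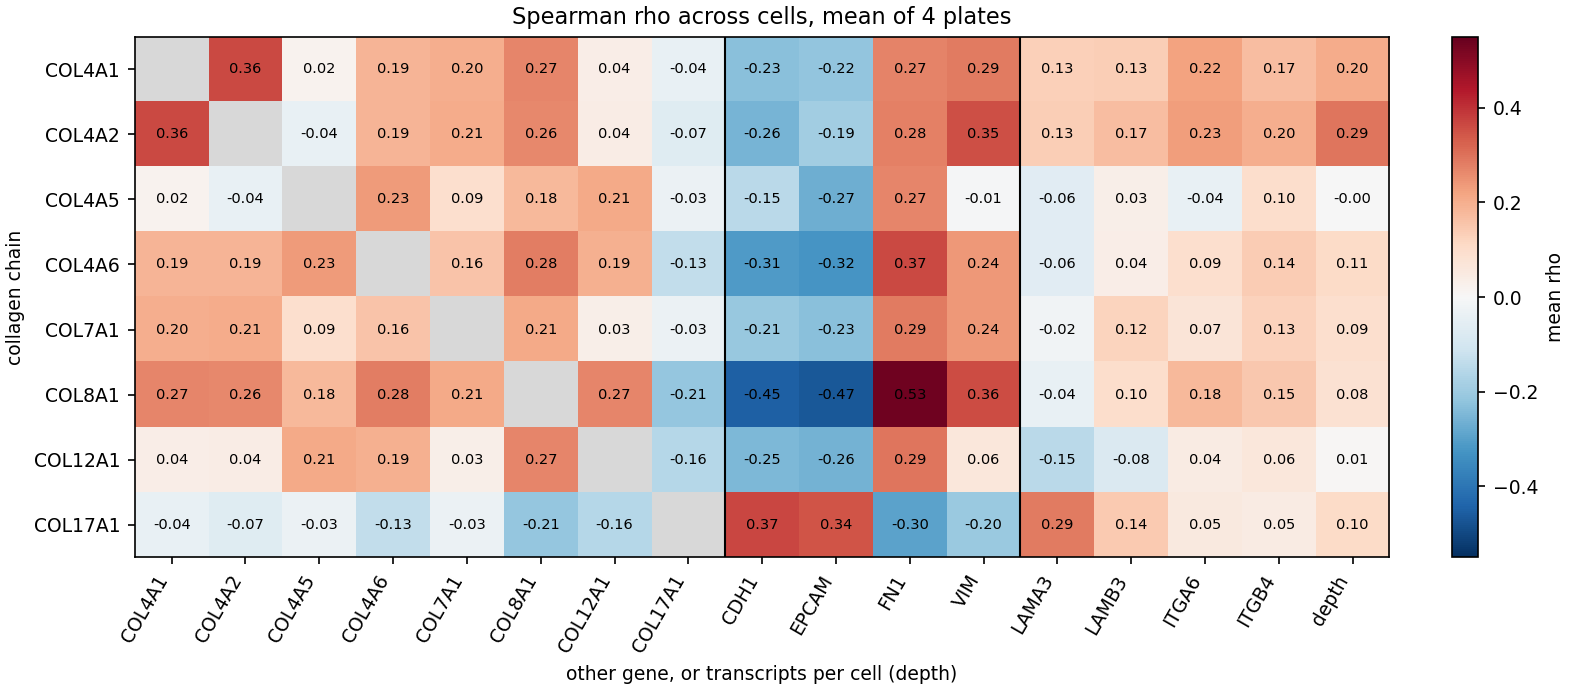
Spearman rho across cells, averaged over 4 plates, of 8 collagen chains (rows) with each other, with the EMT markers CDH1, EPCAM, FN1 and VIM, with chains and receptors of laminin anchorage, and with the depth of the cell (columns). Red is positive and blue negative, and the highest value is 0.53 for COL8A1 with FN1.

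Set against the classic markers, COL8A1 had the largest correlations of either sign among the 8 chains: 0.535 ± 0.0731 with FN1 (fibronectin), 0.359 ± 0.0508 with VIM, -0.45 ± 0.0741 with CDH1 and -0.465 ± 0.11 with EPCAM, an epithelial adhesion molecule. COL17A1 had the opposite signs, with 0.366 ± 0.0527 for CDH1, 0.345 ± 0.0453 for EPCAM, -0.295 ± 0.0905 for FN1 and -0.202 ± 0.0973 for VIM. COL4A5 and COL12A1 followed FN1 (0.27 and 0.293) but not VIM (-0.00643 and 0.0636), and the VIM value had either sign over plates for both.

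The genes most like each chain were taken among 8027 genes that met the same minimum of 20%, by mean rho over the 4 plates, other collagens left out. For COL8A1 they were FN1 (0.535), TIMP1 (0.512), an inhibitor of matrix proteases, and EMP3 (0.501). For COL4A2 they were ANXA5 (0.532), NT5E (0.51), the surface enzyme CD73, and HMGA1 (0.501), and for COL4A6 TIMP1 (0.38), AKR1B1 (0.378) and the secreted protease HTRA1 (0.375). Among the genes most like COL7A1 were ITGB1 (0.306), an integrin chain, and SPOCK1 (0.303). COL12A1 was most like GRINA (0.321), GPC6 (0.316) and SLC39A8 (0.312).

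COL4A5 stood apart, since its list held the nuclear RNAs NEAT1 (0.318) and MALAT1 (0.314) after SEMA3C (0.326). COL17A1 was most like UCA1 (0.37), SPINT2 (0.366), an inhibitor of serine proteases, and CDH1 (0.366). COL4A1 was seen in under 20% of cells on 1 plate and has no such list.

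The partners of COL17A1 in the hemidesmosome did not fall with it. From the lower to the upper part of the score, ITGB4 (integrin β4) rose by 0.44 ± 0.08 (adjusted p = 0.000909, edgeR) and ITGA6 (integrin α6) by 0.24 ± 0.08 (adjusted p = 0.0299) on the log2 scale. DST, a plakin of this junction, rose by 0.74 ± 0.10 (adjusted p = 0.000114). PLEC (0.15 ± 0.08, adjusted p = 0.152) and CD151 (0.10 ± 0.08, adjusted p = 0.385), also in the hemidesmosome list, did not pass. Of the 8 genes of that list, 6 rose and none fell, beside 21.0% of all genes that rose and 20.2% that fell along the score, shares that hold for each list below, and the other 3 that rose were ADAM9 (0.57), ADAM17 (0.38) and ADAM10 (0.37), proteases known to shed the COL17A1 protein. Across cells COL17A1 had a rho of 0.0466 with ITGB4 and 0.0531 with ITGA6. With laminin chains of the ligand of this junction, it had 0.287 ± 0.0501 for LAMA3 and 0.145 ± 0.0742 for LAMB3.

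Other basement membrane genes rose beside type IV collagen along the score. Of 12 tested, 6 rose and 1 fell. Among them, NID2, a linker of laminin and collagen IV networks, rose by 4.98 ± 0.49, LAMA1 by 2.56 ± 0.36, LAMB1 by 2.01 ± 0.14, LAMA4 by 1.79 ± 0.16 and LAMC1 by 1.07, while the proteoglycan AGRN fell by 0.61. LAMA3 and LAMB3, with -0.20 (adjusted p = 0.494) and 0.11 (adjusted p = 0.495), did not pass. Between resolutions, 5 of 12 were higher and 1 lower at high resolution, beside 6.25% and 6.19% of all genes, again for each list. NID2 (1.18 ± 0.33), LAMA3 (0.95 ± 0.18), LAMB1 (0.51 ± 0.11) and LAMB3 (0.39 ± 0.12) were among those higher and LAMB2 (-0.54 ± 0.14) was lower.

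Of 17 genes tested that modify or export collagen, 12 rose and 3 fell along the score, where 21.0% of all genes rose and 20.2% fell. Their median log2 fold change was 0.52, beside 0.01 over all genes. The prolyl 3-hydroxylases split: P3H1 rose by 2.25 ± 0.23 and P3H2 fell by 2.74 (SE 0.15). The lysyl hydroxylase PLOD1 rose by 1.98 ± 0.09, and CTAGE5, a partner in the export of large collagens, fell by 1.23 (SE 0.13). The collagen chaperone SERPINH1 rose by 0.61 ± 0.12. Between resolutions 5 of 17 were higher, namely PLOD1 (0.51), CRTAP (0.51), COLGALT1 (0.48), PLOD3 (0.45) and SEC23A (0.45), and P3H2 was lower (-0.83 ± 0.14).

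Enzymes outside the cell followed in part. Of 6 genes tested for processing and crosslinking, 4 rose along the score and none fell: PCOLCE2 (2.02 ± 0.16), which enhances procollagen cleavage, PXDN (1.48 ± 0.09), which crosslinks collagen IV, LOX (1.29 ± 0.12), a lysyl oxidase that is itself in the mesenchymal list, and BMP1 (1.12 ± 0.10), a procollagen proteinase. PXDN was higher (0.51 ± 0.12) and LOXL2 lower (-0.59 ± 0.12) at high resolution, of 9 genes tested there. Of 6 genes of collagen breakdown, MMP2 (4.15, also in the mesenchymal list), TIMP1 (2.60 ± 0.10) and TIMP2 (0.38 ± 0.09) rose, and MMP2 (1.26 ± 0.23) and TIMP1 (0.43 ± 0.11) were higher at high resolution.

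Of 6 receptors for collagen, 3 rose and 1 fell along the score. MRC2, an endocytic collagen receptor, rose by 4.63 ± 0.46, ITGA10 by 3.57 ± 0.39 and ITGB1, the common integrin partner, by 1.34 ± 0.08, while DDR1, the collagen receptor kinase of epithelia, fell by 1.99 (SE 0.10). ITGA1 and ITGA2 had 0.31 (adjusted p = 0.346) and -0.25 (adjusted p = 0.207). ITGA10 (1.31 ± 0.34) and ITGB1 (0.37 ± 0.10) were higher and DDR1 (-0.78 ± 0.14) lower at high resolution, of 7 tested. Of the 8 genes of the hemidesmosome list, which includes the ADAM proteases, ITGA6 (0.50 ± 0.10) and ITGB4 (0.53 ± 0.12) were higher at high resolution and DST (-0.54 ± 0.14) lower. All values of these lists are log2 fold changes with SE from edgeR's quasi-likelihood test, and every gene said to differ had an adjusted p under 0.05 after Benjamini-Hochberg adjustment over all genes.

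Of the other collagens, 4 passed the filter along the score. COL6A3 rose by 3.80 ± 0.28, COL6A1 (in the mesenchymal list of the study, left out of the score here) by 1.60 ± 0.20, and COL4A4, another type IV chain, fell by 2.72 (SE 0.48, 66 UMIs in all). COL1A1, with -0.11 ± 0.22, did not pass. COL6A3 alone of 5 tested differed between resolutions, with 1.14 ± 0.23 (adjusted p = 0.00845).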

How the data were processed

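Patches of MCF10A_H2B_GFP cells were sequenced by SORT-seq, with 1 plate per replicate and 2 plates per resolution. The authors deposited expected counts per gene and well: numbers of UMIs, not scaled to depth, after a correction for different molecules that carry the same UMI, with spike-ins listed among the genes. The correction for 4096 UMI sequences was undone to whole UMIs (largest deviation 4.5e-13 over 7245730 values) for thinning. STAR 2.7.3a, Seurat 4 and hg38 are named in the submitters' processing notes, without their roles.

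By the study's limits, wells stayed in when they had 2000 to 9000 features and a mitochondrial share below 40%. Fewer cells remained than the study counts as analysed, also without the mitochondrial limit, and the reason is not known here. Spike-ins (0.847% to 1.39% of counts) were then left out. Doublets were not called. Between 2 and 7 cells per plate had under 10000 UMIs and were left out of thinning, which was 1 random draw. For thinned cells, and without the mitochondrial limit, the EMT score and its parts were computed anew, so the parts need not hold the same cells. The EMT score was the difference of a mesenchymal and an epithelial GSVA score (own implementation, Gaussian kernel, 1 fit per resolution), with 61 of 65 epithelial and 76 or 78 of 112 mesenchymal genes found in at least 5 cells. Sums were rounded and tested with edgeR 4.0.16 in R 4.3.3 (TMM, filterByExpr, quasi-likelihood, Benjamini-Hochberg over all genes), with DESeq2 1.42.0 as an alternative. Each SE is the size of the fold change over the root of F. The plates of a resolution are called biological replicates by the study, and p-values between resolutions measure the spread between these plates. For the parts of the score the plate was a block. Those p-values, also for the difference between resolutions, measure how the difference between parts varied from plate to plate. Intervals cover counting error only.

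On simulated counts of 12420 genes for the comparison of resolutions, with 200 changed 2-fold, edgeR recovered 90% with 8 false calls at a dispersion of 0.01, and 6% at 0.05 (12501 genes). For the parts of the score it recovered 96% (11032 genes) and 62.5% (11057 genes).

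The 10 chains and the gene lists were chosen with earlier results of these data known. All 10 chains are named. Of each other list, the 4 members with the largest change among those that passed between the parts of the score are named, with every member that differed between resolutions. AGRN, LAMC1, SERPINH1, ITGA1, ITGA2, ADAM10, PLEC and CD151 were chosen after their values were seen. For each chain with a UMI in 20% of cells or more on each plate, the 3 genes with the highest mean rho are named. Some genes that this rule names are not reported here.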

Additional observations from a re-analysis of the deposited data

Results flagged for a closer look

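The difference between the upper and the lower part of the EMT score was not the same at both resolutions for COL12A1 and COL8A1, by a test of the difference itself. The log2 difference, high minus low resolution, was -1.89 for COL12A1 and -1.30 for COL8A1. For COL12A1 it stayed between -2.20 and -1.60 with each plate left out, and passed each time. For COL8A1 it was -0.81 (edgeR's quasi-likelihood test, adjusted p = 0.186) without low-resolution replicate 1, the plate read on another flow cell, and -1.76 to -1.17 without any other plate. DESeq2 gave log2 differences of -1.89 and -1.28 and no adjusted p for any chain here, since its own filter on low means left them out. On the high-resolution plates the level of COL12A1 in the middle part was 0.694 and 0.594, above the 0.404 and 0.457 of the upper part, whereas on the low-resolution plates it was 0.521 and 0.224 against 1.36 and 1.02. The bands from which cells were sorted and the range of scores in each part differed between the resolutions as well, and the part of either in this difference cannot be told apart from the resolution.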

How the results depend on the processing

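The number of chains that passed between resolutions was 4, with 3 or 4 under another tool, another normalization, no filter, no mitochondrial limit, mitochondrial genes left out and each plate left out. Fits on the cells of 1 part of the score were alternatives chosen after seeing the data. In them the number was 4 in the lower part, 4 in the middle part and 2 in the upper part, and the chains were partly others. In the lower part COL7A1 had a log2 fold change of -1.23, against 0.10 over all cells. The number that passed between the parts of the score was 8 under every alternative run. With the cells cut into equal upper and lower groups, the folds of COL8A1, COL4A1 and COL17A1 were 3.79, 3.58 and 0.425. Thinning, with the score and its parts computed anew, moved that of COL12A1 from 3.33 to 6.2. Fits with the replicate number as a block for the resolutions, and without the plate block for the parts, gave 4 and 8 chains. The deviations of same-numbered plates had r = -0.024, a single value since 2 plates deviate from their mean by mirror images, and nothing in the labels ties the numbers, so they were not read as pairs. The number whose rise differed between resolutions was 2, and ranged from 1 to 4 with each plate left out, alternatives chosen after seeing the data. The median rho with the score, taken on each plate over all 10 chains with COL18A1 and then averaged, was 0.259. With each plate left out it was 0.254 to 0.265. In thinned cells it was 0.176, but COL18A1 had no UMI there and COL5A2 none on high-resolution replicate 2. These values are thus over different chains and do not give the size of the drop. The rho of COL4A1 with COL4A2 was 0.365, with 0.112 in thinned cells, 0.195 with ranks of score and depth regressed out, and 0.337 to 0.387 with each plate left out, and that of COL4A5 with COL4A6 was 0.233, with 0.0984 in thinned cells and 0.215 to 0.264. The summed level moved from 2.92 to 3.05 in thinned cells and 2.74 without the mitochondrial limit. With 2 plates per resolution, leaving out 1 leaves a lone plate that is taken to vary like the others.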
